A study of Mus musculus with 2 samples.

Results

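The 4 genes described here, Mir138-1, Mir138-2, Mir129-1 and Mir129-2, make 2 brain microRNAs, miR-138 and miR-129, each from 2 loci. They were taken by gene name from the 2202 microRNA genes listed for each library. The libraries are microRNA-seq of the left cerebral cortex of 2 female mice aged 36 days, of the strain B6CASTF1/J, an F1 hybrid of a C57BL/6 and a CAST parent. The labels give both mice as biological replicates of 1 group and name no treatment, so no comparison of conditions exists, and each mouse is 1 library. Mouse 2 (replicate 2) gave 1863876 counts on the strand of the genes and mouse 1 (replicate 1) gave 1930234.

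A microRNA is cut from a hairpin transcript, and either arm of the hairpin (5p or 3p) can be loaded into an Argonaute protein, where bases 2 to 8, the seed, pair with target mRNAs. miR-138 is known from dendrites of rat hippocampal neurons, where it limits the size of dendritic spines by repressing Lypla1, which encodes the depalmitoylating enzyme APT1. miR-129-5p is known to repress Kcna1, which encodes the potassium channel Kv1.1, and to take part in the homeostatic weakening of synapses in rat neurons. Because each microRNA has 2 genes, its supply depends on both loci, and a count per gene separates them only where their sequences differ.

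The mature sequences of the 4 genes in RefSeq (build GRCm38.p6, on which all 4 genes were matched by name and position) follow, with the seed in capitals, because they show which product each pair of loci shares. miR-138-5p is annotated at both Mir138 loci and miR-129-5p at both Mir129 loci.
miR-138-5p: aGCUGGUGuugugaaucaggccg
miR-138-1-3p: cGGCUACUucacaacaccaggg
miR-138-2-3p: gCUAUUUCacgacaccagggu
miR-129-5p: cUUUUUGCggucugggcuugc
miR-129-2-3p: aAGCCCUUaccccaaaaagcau
No other mature mouse microRNA in that table has any of these 5 seeds. The seeds of miR-138-1-3p and miR-138-2-3p differ from each other. With miR-138-1-3p set 2 bases ahead, the 2 arms overlap over 20 bases, of which 18 are identical, and they differ by C7U and A13G (positions counted from 1 at the 5′ end of miR-138-1-3p, its base first). The stretch of the Mir129-1 hairpin that stands where Mir129-2 has miR-129-2-3p is identical in 21 of 22 bases and differs by C20U (positions from 1 at the 5′ end of miR-129-2-3p, its base first). That stretch follows, with the differing base in capitals.
Mir129-1, 3p stretch: aagcccuuaccccaaaaagUau

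The whole hairpins follow, with runs of 12 or more bases shared by the 2 loci of a microRNA in capitals, since these runs decide which reads fit a single locus.
Mir138-1: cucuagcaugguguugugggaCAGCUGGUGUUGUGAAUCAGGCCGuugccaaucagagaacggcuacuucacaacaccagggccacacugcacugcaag
Mir138-2: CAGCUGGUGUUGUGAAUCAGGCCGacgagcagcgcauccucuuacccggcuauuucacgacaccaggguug
Mir129-1: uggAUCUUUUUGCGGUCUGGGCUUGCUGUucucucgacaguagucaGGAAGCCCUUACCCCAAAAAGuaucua
Mir129-2: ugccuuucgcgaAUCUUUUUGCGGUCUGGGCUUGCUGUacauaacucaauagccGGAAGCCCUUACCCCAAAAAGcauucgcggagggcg
The Mir138 hairpins shared a run of 24 bases, which holds all 23 bases of miR-138-5p. The Mir129 hairpins shared a run of 26 bases, which holds all 21 bases of miR-129-5p, and a run of 21 bases that holds the first 19 of the 22 bases of miR-129-2-3p. A read of exactly miR-138-5p or miR-129-5p therefore fits both loci, and the tables hold reads that mapped to several places apart from every gene. Reads over the 3p arms of Mir138, or 5p reads that run past the shared stretch, fit a single one of these hairpins. Of the windows of 20 bases in each hairpin, 75 of 80 in Mir138-1, 47 of 52 in Mir138-2, 45 of 54 in Mir129-1 and 62 of 71 in Mir129-2 occurred in no other annotated hairpin on its own strand. The rest of the genome was not searched. The counts below do not tell the arms apart, and how many reads of the shared 5p arms they leave out was not tested.

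Mir138-1 (ENSMUSG00000065414) lies on the plus strand at chr9:122682876-122682974 in mm10, overlapping an exon of the transcribed pseudogene Gm47135. Mir138-2 (ENSMUSG00000065512) lies on the plus strand at chr8:94324311-94324381, overlapping an exon of the long non-coding gene C78859. Mir129-1 (ENSMUSG00000065469) lies on the plus strand at chr6:29022619-29022691, overlapping an exon of the long non-coding gene Gm3294. Mir129-2 (ENSMUSG00000065511) lies on the minus strand at chr2:94241364-94241453, in an intron of the long non-coding gene Mir670hg. All 4 thus overlap a non-coding gene on their own strand, and none lies in a protein-coding gene. The hairpins have 99, 71, 73 and 90 bases in that order, and 54.5%, 57.7%, 47.9% and 53.3% of their bases are G or C, against a median of 50.9% over the 304 genes detected in both mice. Their predicted folding energies, set to length, were −0.46 kcal/mol per base for Mir138-1, −0.41 for Mir138-2, −0.42 for Mir129-1 and −0.53 for Mir129-2, against a median of −0.44 over the detected genes. Mir129-2 had the most stable predicted fold of the 4, and 8.41% of 2201 annotated hairpins had a lower energy per base.

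Since the function of both microRNAs is known through the shared 5p arms, the match to each 5p seed was looked up in the longest annotated 3′ UTR of genes known as their targets. The motif CACCAGC, the reverse complement of the miR-138-5p seed, was found 1 time each in Lypla1 and in Sirt1, the gene of the deacetylase SIRT1. The motif GCAAAAA, the reverse complement of the miR-129-5p seed, was found 1 time each in Kcna1 and in Atp2b4, the gene of the calcium pump PMCA4, and 2 times in Dcx, the gene of doublecortin. These motifs were searched on the mRNA strand and stand in 11.5% and 10.3% of the longest 3′ UTRs of 21707 genes, so that a match is a description and not a measured site. Those UTRs had a median length of 919 bases. The named ones were longer, with 1726 bases in Lypla1, 1634 in Sirt1, 1474 in Kcna1, 7237 in Atp2b4 and 7712 in Dcx. A longer UTR holds a given motif more often by chance, and the 2 shares make no allowance for length. One site for each microRNA is shown with the match in capitals, as the DNA letters of the mRNA strand.
Lypla1 (chromosome 1): ccttgagtagaagttCACCAGCatc
Kcna1 (chromosome 6): aaaaccaaacacaaaGCAAAAAata
No target mRNA was measured in these libraries.

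The libraries held the microRNA genes known from cortical neurons at high levels. Of 8 neuron marker genes 5 were detected, which means that each mouse had at least 10 CPM (the count of a gene scaled to 1000000 own-strand counts in the library). In mouse 2 the 8 summed to 187840 CPM, against 187666 CPM in mouse 1. These near-equal sums hold differences of single markers: Mir132 had 64860 CPM in mouse 2 and 29894 in mouse 1, Mir137 had 9970 in mouse 2 and 5768 in mouse 1, and Mir139 had 92535 in mouse 2 and 132003 in mouse 1. The 3 Mir124a genes, which share their mature sequence, had 1 to 4 counts each. Markers of other cells were present as well. The oligodendrocyte markers Mir219a-2 and Mir338 together reached 5119 CPM in mouse 2, against 2746 CPM in mouse 1, and the endothelial Mir126a had 22380 CPM in mouse 2 against 11276 CPM in mouse 1. The erythroid Mir451a and Mir144 together reached 127.7 CPM in mouse 2, against 711.8 CPM in mouse 1. The liver Mir122 had 40.2 CPM in mouse 2, against 45.6 CPM in mouse 1. Of 5 striated muscle markers Mir206 alone was detected, while Mir1a-1, Mir133a-1 and Mir133a-2 had 0 counts in both mice. The Mir1a genes and the Mir133a genes share their mature sequences, as the Mir124a genes do, so these 0 counts do not show that the microRNAs were absent. These marker differences between the mice stand beside every difference between mice given below, their part in it was not tested, and in tissue RNA fewer cells of a type and less RNA per cell cannot be told apart.

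All 4 loci were detected in both mice, as were 13.8% of the 2202 genes. Mir138-1 had 9579 counts in mouse 2 and 7012 in mouse 1, which is 5139 and 3633 CPM, or 4386 ± 1065 CPM (SD, n = 2 mice). Mir138-2 had 4079 counts in mouse 2 and 6182 in mouse 1, which is 2188 and 3203 CPM, or 2696 ± 717 CPM. Mir138-1 was thus higher in mouse 2 and Mir138-2 lower in it, so that the 2 genes lay far apart in mouse 2 and close together in mouse 1. Mir129-2 had 3157 counts in mouse 2 and 2939 in mouse 1, or 1694 and 1523 CPM, with a mean of 1608 ± 121 CPM. Mir129-1 had 1352 counts in mouse 2 and 895 in mouse 1, or 725 and 464 CPM, with a mean of 595 ± 185 CPM. Mir129-1 was the lowest of the 4 in both mice. No molecular identifiers are named in the sources used here, so PCR copies may be among these counts, and all intervals below cover counting error only.

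By mean CPM per 100 bases of hairpin among the 2202 genes, Mir138-1 ranked 49, Mir138-2 ranked 56, Mir129-2 ranked 83 and Mir129-1 ranked 118. By mean CPM, with no allowance for length, the ranks were 43 for Mir138-1, 58 for Mir138-2, 82 for Mir129-2 and 123 for Mir129-1. Together the 4 loci held 0.975% of all counts in mouse 2 and 0.882% in mouse 1. Per 100 bases of hairpin, the levels were 5191 CPM in mouse 2 and 3669 in mouse 1 for Mir138-1, and 3082 in mouse 2 and 4511 in mouse 1 for Mir138-2. The 2 Mir138 genes overlapped on this scale, at 4430 ± 1076 and 3797 ± 1010 CPM per 100 bases, and changed order between the mice. Mir129-2 stood at 1882 CPM per 100 bases in mouse 2 and 1692 in mouse 1, and Mir129-1 at 994 in mouse 2 and 635 in mouse 1. Both Mir138 genes lay above Mir129-2, and Mir129-2 above Mir129-1, in both mice and without overlap, with CPM and with CPM per 100 bases. With 2 mice an unpaired exact permutation test between 2 genes cannot go below p = 0.333, and pairing by mouse would not lower that limit. These orders are therefore descriptions.

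**Figure D1:**
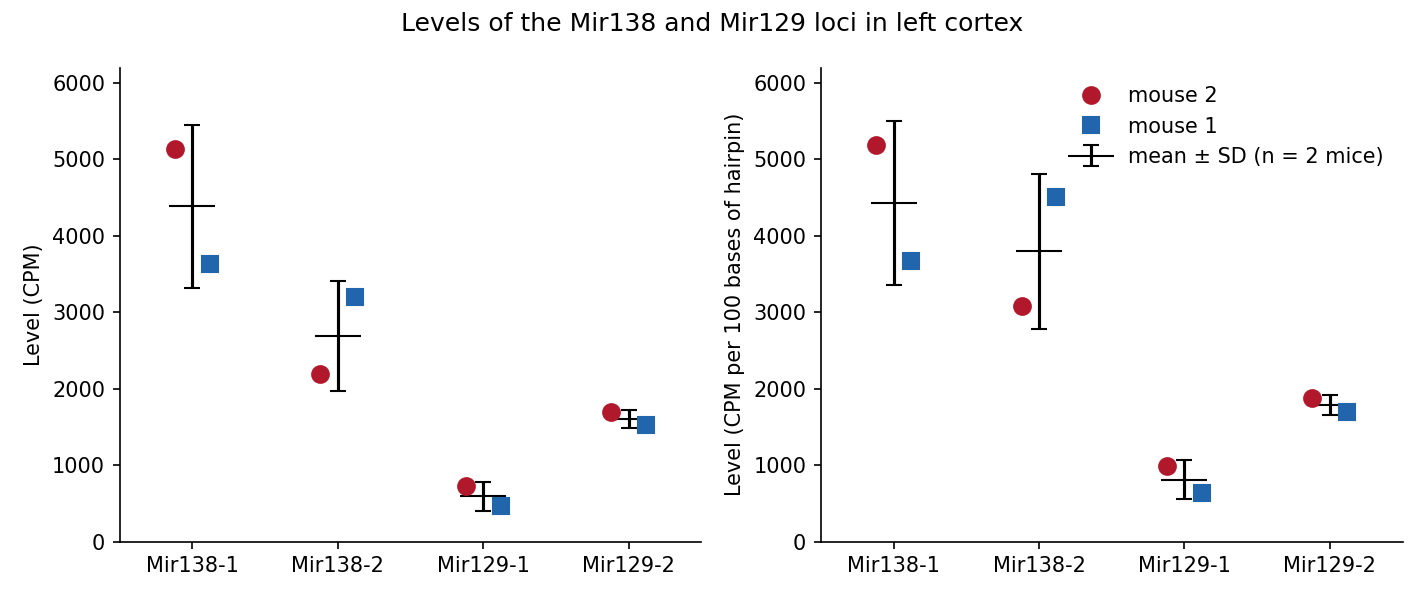
Level of each locus in mouse 2 (circles) and mouse 1 (squares), as CPM (left) and as CPM per 100 bases of hairpin (right), with mean and SD over 2 mice. Mir138-1 and Mir138-2 trade places on the right-hand scale, while Mir129-1 lies below Mir129-2 in both mice on both scales.

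The genes nearest in mean CPM, taken with no allowance for length, show how far such ranks can be read. For every member, the 2 genes next above and the 2 next below it had a range over the mice that overlapped its own. Mir378a stood above Mir138-1 at 4497 ± 1231 CPM, and Mir221 below it at 4252 ± 1811 CPM. Mirlet7f-2 (2963 ± 475 CPM) and Mir676 (2377 ± 548 CPM) enclosed Mir138-2. Mirlet7c-2 (1623 ± 607 CPM) and Mir337 (1608 ± 244 CPM) enclosed Mir129-2, and Mir1981 (599 ± 148 CPM) and Mir101b (589 ± 337 CPM) enclosed Mir129-1. The second neighbours were Mir92b and Mir335 for Mir138-1, Mir598 and Mir21a for Mir138-2, Mir1839 and Mir376a for Mir129-2, and Mir15a and Mir17 for Mir129-1. Of these 16 neighbours, Mir17 and Mir1839 differed least between the mice and Mir21a and Mir335 most, so equal mean levels came with unequal spread.

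Mir129-2 shares its place with another annotated microRNA gene, Mir129b (ENSMUSG00000106336), on the plus strand at chr2:94241378-94241442, inside the Mir129-2 interval. RefSeq annotates 2 mature products for it, shown with their seeds in capitals because they pair over most of their length with the arms of Mir129-2.
miR-129b-5p: gCUUUUUGggguaagggcuucc
miR-129b-3p: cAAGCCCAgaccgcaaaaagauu
The reads came almost all from the strand of Mir129-2. Mir129b had 1 count in mouse 2 and 4 in mouse 1, against 3157 and 2939 for Mir129-2, so that the Mir129b strand took 0.0317% of the reads of both genes in mouse 2 and 0.136% in mouse 1. In mouse 2 that count is under the 3 counts that a count of 0 allows (1.61 CPM), and in mouse 1 it is just above them (1.55 CPM). In the column that ignores strand and gives a read over both genes to neither, Mir129-2 kept 4 counts in mouse 2 and 9 in mouse 1, and Mir129b kept 0 in both. Thus 99.9% of the Mir129-2 reads in mouse 2 and 99.7% in mouse 1 lay over the Mir129b interval, which covers both annotated arms of Mir129-2 except the last 2 bases of miR-129-2-3p. The other 3 loci have no gene on the opposite strand, had 0 counts there and kept every count. Of the 304 detected genes, 25 (8.22%) lost counts in the unstranded column, and each lost at least 90% of them.

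**Figure D2:**
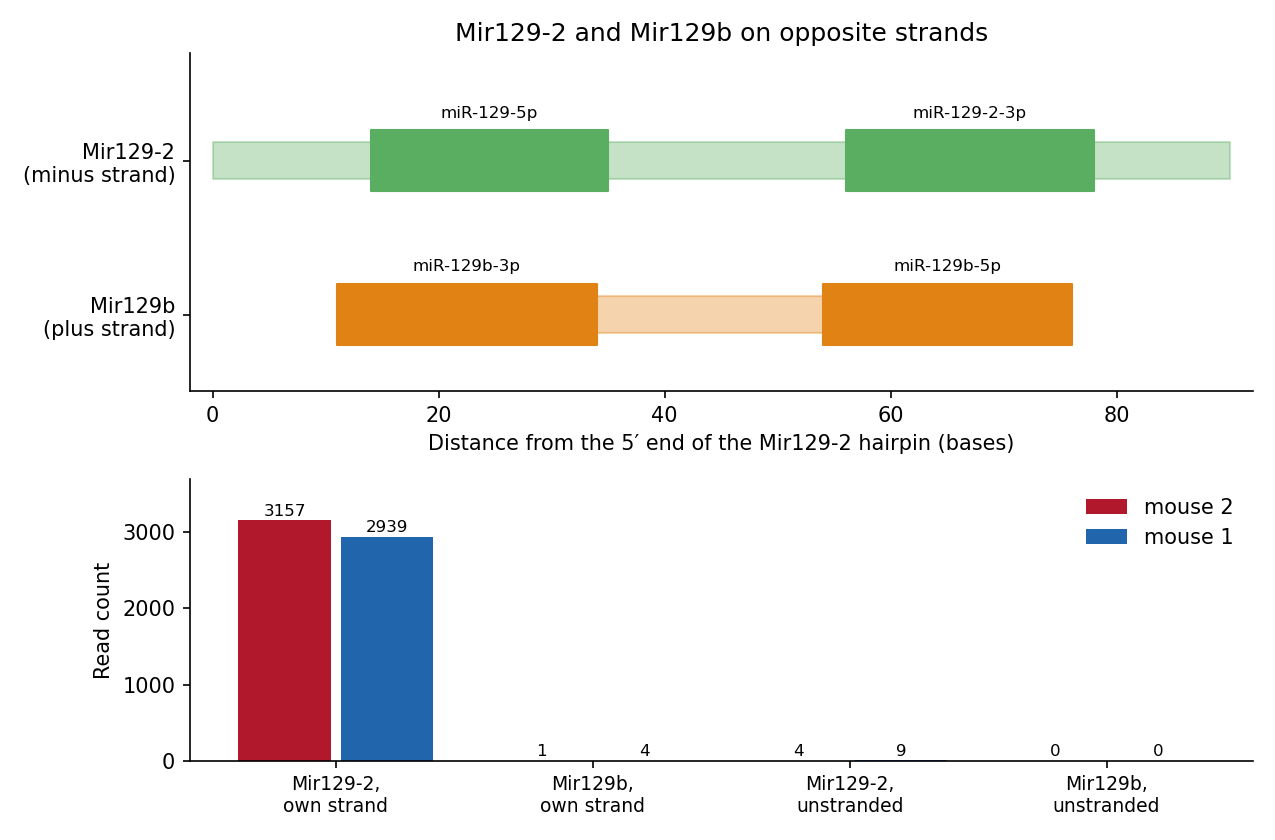
Top: the Mir129-2 and Mir129b hairpins (pale) and their mature arms (dark) by distance in bases from the 5′ end of the Mir129-2 hairpin. Bottom: read counts of both genes in mouse 2 and mouse 1, on the strand of each gene and without regard to strand; Mir129-2 holds 3157 and 2939 counts on its strand and 4 and 9 in the unstranded column.

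The difference between the 2 mice was larger than counting error for each of the 4 loci, but under 2-fold for all of them. Differences are log2 ratios of mouse 2 over mouse 1 with TMM library sizes, tested by a two-sided exact binomial test over the 324 genes whose mean reached 10 CPM, with Benjamini-Hochberg adjustment. This test compares 2 libraries and not 2 conditions, and animal and library preparation cannot be told apart. Mir138-1 was higher in mouse 2 by 0.45 (95% interval 0.41 to 0.50; adjusted p = 7.73e-89 by the exact test). Mir138-2 was lower in mouse 2, at −0.60 (−0.65 to −0.54; adjusted p = 8.23e-95 by the exact test). Mir129-1 was higher in mouse 2 by 0.60 (0.47 to 0.72; adjusted p = 9.29e-22 by the exact test), and Mir129-2 by 0.11 (0.03 to 0.18; adjusted p = 0.00678 by the exact test). In fold terms Mir138-1 was 1.37-fold higher, Mir138-2 1.51-fold lower, Mir129-1 1.51-fold higher and Mir129-2 1.08-fold higher in mouse 2. Mir129-2 was thus the most even of the 4, and the Mir138 genes moved in opposite directions.

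Such differences were common among microRNA genes. All 4 loci passed an adjusted p of 0.05 at any fold, as did 74.7% of the 324 genes, and none of the 4 passed it at 2-fold or more, as did 19.4%. By direction, 3 of the 4 were higher in mouse 2, as were 38% of genes at any fold, and 1 was lower, as were 36.7%. At 2-fold or more 14.2% of genes were higher in mouse 2 and 5.25% lower, and none of the 4 was among them. The median gene differed by 0.53 on the log2 scale, or 1.44-fold. The absolute difference of Mir138-1 exceeded those of 42.6% of genes, that of Mir138-2 55.9%, that of Mir129-1 55.6% and that of Mir129-2 11.4%. In edgeR, the variation shared by all genes apart from that of counting had a coefficient of 0.399. The plot of difference against level shows the 4 loci inside the 2-fold lines.

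**Figure D3:**
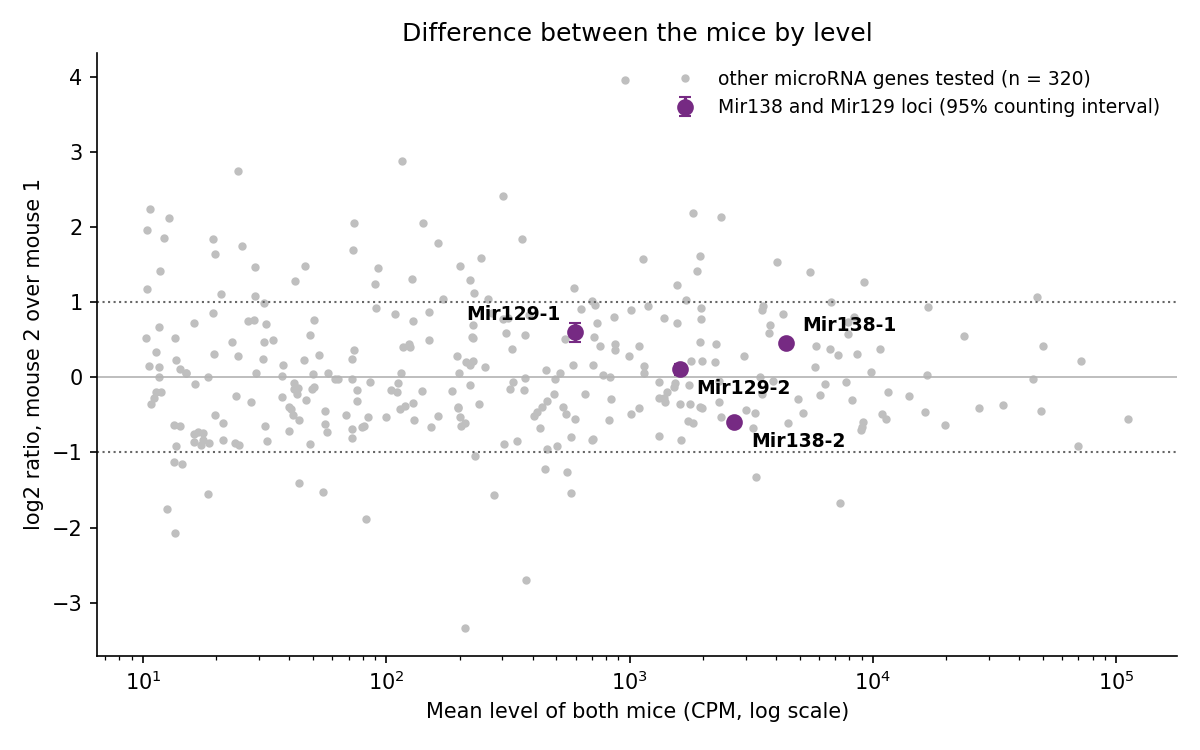
Log2 ratio of mouse 2 over mouse 1 against mean level (CPM, log scale) for the 324 genes tested, with 95% counting intervals for the 4 loci; dotted lines mark 2-fold. Mir138-1 (0.45) and Mir138-2 (−0.60) lie on opposite sides of 0, and all 4 loci lie between the dotted lines.

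The ratio of a sum over 2 loci always lies between the ratios of its genes. For Mir138, whose genes moved in opposite directions, the sum was more even between the mice than either gene. For Mir129 both genes moved in the same direction. Mir138-1 and Mir138-2 summed to 13658 counts in mouse 2 and 13194 in mouse 1, or 7328 and 6835 CPM (7082 ± 348 CPM). The log2 ratio of these sums, mouse 2 over mouse 1, was 0.05 (95% counting interval 0.02 to 0.09), or 1.04-fold. The summed level thus hardly differed with TMM library sizes, while the 2 genes differed by 1.37-fold and 1.51-fold in opposite directions. With a GC trend removed, the log2 ratios were 0.53 for Mir138-1 and −0.44 for Mir138-2, and their sum was not computed in that setting. Mir129-1 and Mir129-2 summed to 4509 counts in mouse 2 and 3834 in mouse 1, or 2419 and 1986 CPM (2203 ± 306 CPM), with a log2 ratio of 0.24 (0.17 to 0.30), or 1.18-fold. The summed Mir138 counts were 3.03 times the summed Mir129 counts in mouse 2 and 3.44 times in mouse 1. These sums leave out reads that mapped to several places. Of the 20-base windows over the whole hairpin, 93.8% in Mir138-1 and 90.4% in Mir138-2 occurred in no other annotated hairpin. In Mir129-1 it was 83.3% and in Mir129-2 87.3%. Within the shared arms it was 0 of 4 windows for miR-138-5p and 0 of 2 for miR-129-5p. In the 3p arms it was 3 of 3 for miR-138-1-3p, 2 of 2 for miR-138-2-3p and 3 of 3 for miR-129-2-3p. The whole-hairpin shares therefore do not measure how many 5p reads the sums leave out. The part of this in the ratio of the sums was not tested.

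The balance within a pair does not depend on library size, since both loci are counted in the same library. Mir138-1 held 70.1% of the Mir138 counts in mouse 2 (95% Clopper-Pearson interval 69.4% to 70.9%) and 53.1% in mouse 1 (52.3% to 54.0%). Mir129-1 held 30.0% of the Mir129 counts in mouse 2 and 23.3% in mouse 1. Locus 1 was therefore the larger source of placed Mir138 reads, and locus 2 the larger source of placed Mir129 reads, in both mice. The log2 ratio of locus 1 over locus 2, in counts, was 1.23 in mouse 2 (95% interval 1.18 to 1.28) and 0.18 in mouse 1 (0.13 to 0.23) for Mir138. For Mir129 it was −1.22 in mouse 2 (−1.32 to −1.13) and −1.72 in mouse 1 (−1.82 to −1.61). Per base of hairpin, Mir138-1 stood at 1.68 times Mir138-2 in mouse 2 and at 0.813 times in mouse 1, so that in mouse 1 it led by counts and not per base. On the same per-base scale Mir129-2 stood at 1.89 times Mir129-1 in mouse 2 and at 2.66 times in mouse 1.

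Both pairs shifted towards locus 1 in mouse 2. The log2 ratio of Mir138 was 1.05 higher in mouse 2 than in mouse 1, a 2.07-fold shift (adjusted p = 4.31e-180 by Fisher's exact test of locus by mouse, adjusted over 18 pairs). For Mir129 it was 0.49 higher in mouse 2, a 1.41-fold shift (adjusted p = 2.82e-11 by Fisher's exact test). The 18 pairs are all those among 43 pairs of microRNA genes named with the suffixes 1 and 2 that had both loci at 10 CPM or more on average. At 2-fold or more, 6 pairs (33.3%) passed the test, Mir138 among them and Mir129 not. At any size 12 pairs (66.7%) passed, both of these included. The median absolute shift was 0.60 over the 18 pairs, and by its size Mir138 ranked 6 and Mir129 ranked 10. Of the 18 pairs, 11 shifted towards locus 1 in mouse 2 and 7 towards locus 2.

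Averaged over the mice, the Mir138 loci were closer together than those of the median pair, which rests on mouse 1. In mouse 2 alone the Mir138 ratio (1.23) was as far from 0 as that of Mir129 (−1.22), and in mouse 1 the Mir138 ratio was 0.18. The median absolute log2 ratio of the 2 loci, from the mean over the mice, was 1.34 over the 18 pairs, against 0.71 ± 0.74 for Mir138 and −1.47 ± 0.35 for Mir129 (SD, n = 2). In 7 of the 18 pairs the 2 loci differed between the mice in opposite directions, as those of Mir138 did. The largest shifts were those of Mir181a (1.30) and Mir218 (−1.28), and the smallest were those of Mir16 (−0.04) and Mir135a (0.07). Mir181a rested on 32 counts in mouse 2 and 59 in mouse 1 at its second locus. Mir138 had at least 4079 counts at either locus in either mouse. These ratios cover placed reads alone, and the part that shared sequence has in them was not tested.

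**Figure D4:**
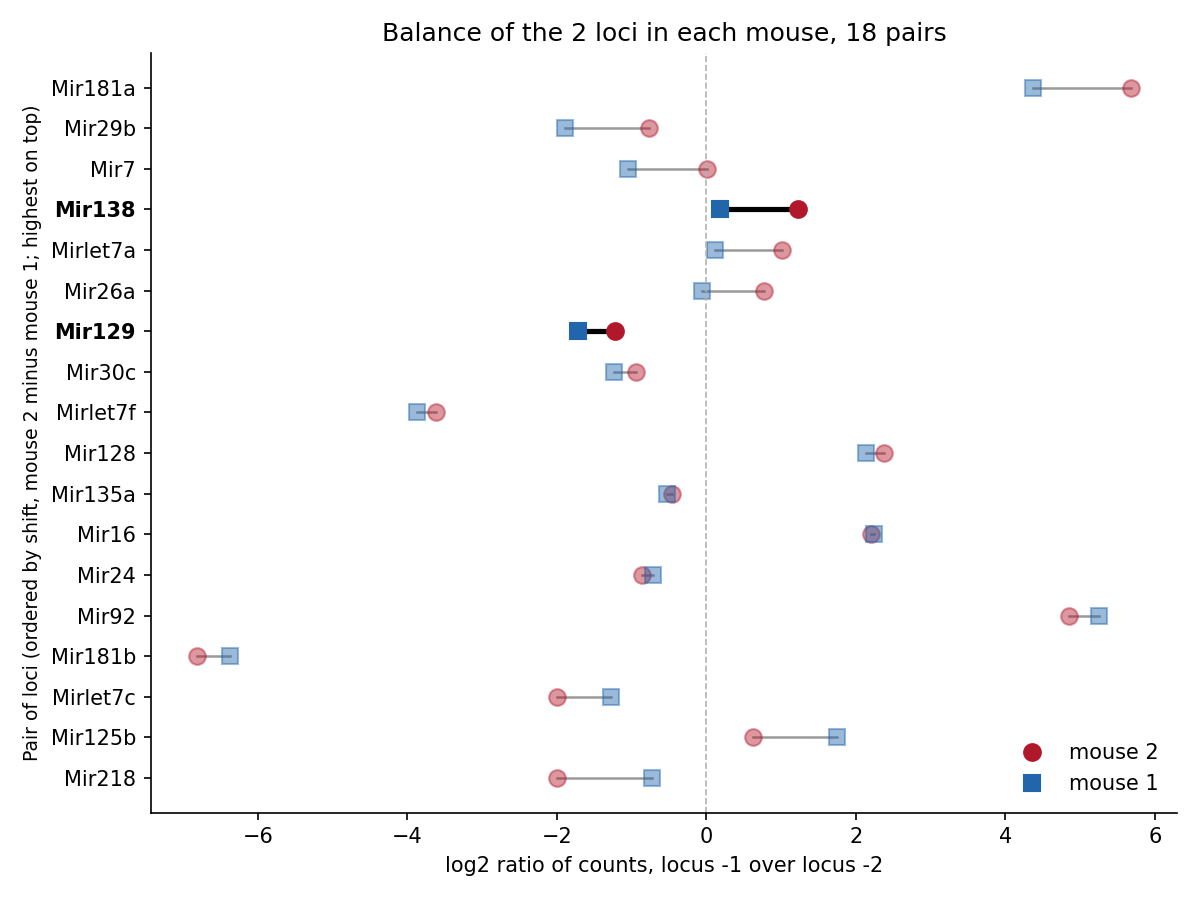
Log2 ratio of counts at locus 1 over locus 2 in mouse 2 (circles) and mouse 1 (squares) for 18 pairs of loci, ordered by the shift between the mice. Mir138 (1.23 in mouse 2 and 0.18 in mouse 1) shifts by more than the median pair, and Mir129 (−1.22 in mouse 2 and −1.72 in mouse 1) by less.

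A list of 34 microRNA genes known from synaptic plasticity or neuronal activity, to which all 4 loci belong, gave the wider setting. The list took 22.6% of the counts of each mouse, and 30 of its genes were detected. The 5 highest were Mir139 (112269 ± 27908 CPM), Mir132 (47377 ± 24725 CPM), Mir128-1 (16730 ± 633 CPM), Mir125a (11298 ± 2759 CPM) and Mir137 (7869 ± 2971 CPM). Ordered by mean CPM, with no allowance for length, Mir138-1 stood at place 7, Mir138-2 at 10, Mir129-2 at 12 and Mir129-1 at 17. Mir212, which is transcribed with Mir132 and like it is known to be induced by neuronal activity, had 1147 ± 114 CPM, between Mir129-2 and Mir129-1. Of the 30 list genes tested, 5 passed the exact test at 2-fold or more, all higher in mouse 2 (background 14.2% of the 324 genes). The genes were Mir132, Mir410, Mir135b, Mir26a-1 and Mir26a-2, and none of the 4 loci was among them. The median log2 ratio was 0.13 over the list and −0.004 over all genes tested, and the median absolute ratio was 0.56 over the list and 0.53 over all genes tested. The log2 ratios of these 5 ran from 1.07 for Mir132 to 2.88 for Mir26a-1.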

How the data were processed

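The deposited values are whole-number read counts per microRNA gene, 1 table per library with 3 count columns and no header. Genome and annotation were mm10 and GENCODE M21, per the labels and the deposited README notes. The aligner, counter and trimming are not given in the sources used here. From the values, the columns were read as unstranded, own-strand and opposite-strand counts, and the own-strand column was used. Lines that name no gene held 70.2% of reads in mouse 2 and 72.7% in mouse 1 (unmapped, mapped to several places or in no gene; 51.2% and 50.9% of mapped reads mapped to several places) and were left out. CPM used the total of own-strand counts. TMM factors (1.02 in mouse 2, 0.983 in mouse 1) and the spread came from edgeR 4.0.16 with an intercept-only design; with 1 group no quasi-likelihood test is possible. Exact tests and intervals used scipy 1.17.1, folds RNAfold 2.7.2, and alternatives DESeq2 1.42.0 size factors. The test between the mice was run on simulated counts with counting error alone, where 199 of 200 genes with 3-fold changes were recovered, with 0 false calls. That simulation held no variation between animals, so it cannot show how often the test calls such variation. The chi-square of the 2 libraries was 245 per degree of freedom, so they are not 1 library deposited as 2. The genes named beyond the 4 loci are the 2 neighbours in level on each side, the 2 largest and 2 smallest pair shifts, the 5 highest of the synaptic list and the marker genes; Mir212, Mir410, Mir135b, Mir26a-1, Mir26a-2 and the target genes were named after values were seen. The members and lists were chosen with earlier results of these data known. The p-values measure only the spread of reads between 2 libraries. Reads that carry CAST alleles may have been lost against the mm10 reference, which was not tested.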

Additional observations from a re-analysis of the deposited data

Results flagged for a closer look

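Mir129-2 had 4 counts on its opposite strand in mouse 1, in a column that enters no level given above, which is more than the 3 counts that a count of 0 allows; mouse 2 had 1, which is not. The same counts are those of Mir129b, which lies there.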

How the results depend on the processing

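Scaled to all mapped reads, the mean levels were 1783 CPM for Mir138-1, 1091 for Mir138-2, 242 for Mir129-1 and 653 for Mir129-2, since that total is larger by construction. In the unstranded column Mir129-2 fell to 3.67 CPM and the log2 ratio of Mir129-1 over Mir129-2 turned to 7.52, because reads over Mir129b are given to neither gene; 3 of 4 loci were then detected, and Mir129-2 and the shift of its pair could not be tested. The log2 ratios between the mice kept their sign and stayed under 2-fold with DESeq2 size factors, total counts, no filter and a GC trend removed, and the adjusted p of Mir129-2 by the exact test ran from 3.71e-05 to 0.0148. Over all genes 60 to 71 passed at 2-fold or more, against 63 of 324 in the main setting. The numbers tested differed, since with no filter it was 71 of 722 and in the unstranded column 62 of 308. Leaving out 1 mouse leaves the value of the other, which says nothing about stability: the log2 ratio of the loci ran from 0.18 to 1.23 for Mir138 and from −1.72 to −1.22 for Mir129. No paired comparison of conditions was possible because there is 1 group, while the 2 loci of a microRNA were compared within each mouse. Depth limits Mir129b, whose counts lie near the limit of detection.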
